A study of Capra hircus with 9 samples.

Results

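Iron handling genes were followed in mammary gland tissue of Laoshan dairy goats, a Chinese dairy breed, over 3 stages of the reproductive cycle. The set was defined by symbol and holds 10 genes, TFRC, TF, CP, SLC40A1, HMOX1, SLC11A1, SLC11A2, FTH1, HFE and STEAP4. Of these, 8 were found among the 23499 genes of the table, and all 8 were among the 14701 genes tested. TF, the plasma iron carrier transferrin, and SLC11A2, the divalent metal transporter DMT1, were not found under these symbols and were not analysed here. The 9 libraries came from 9 healthy goats of parity 3 with an average age of 4 years, 1 library per goat. The stages were late lactation (LL, 240 days postpartum), the dry period (DP, 300 days postpartum) and late gestation (LG, 140 days after mating), with 3 goats in each. Each goat was slaughtered for sampling, so no animal was followed from stage to stage. A limma p-value sets a difference between stages against the spread between libraries of different goats within stages.

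Most cells take up iron bound to transferrin, which binds the transferrin receptor TFRC and is carried into endosomes. There the iron is reduced by metalloreductases of the STEAP family and leaves the endosome through a divalent metal transporter, DMT1 in most cells and SLC11A1 (NRAMP1) in the phagosomes of macrophages. Iron that is not used is stored inside ferritin, a shell built of the heavy chain FTH1 and the light chain FTL. Ferroportin, encoded by SLC40A1, is the exporter of iron, and ceruloplasmin (CP) is a copper enzyme that oxidizes the exported iron so that it can bind transferrin. HFE is an MHC class I-like protein that binds the transferrin receptor and takes part in the control of hepcidin, and HMOX1 is the inducible heme oxygenase that frees iron from heme. In the mammary gland iron is drawn from the blood and passed into milk, where lactoferrin (LTF) binds it.

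Values are FPKM, fragments mapped to a gene relative to its length and to the size of the library, so levels of different genes in a library can be compared per length. The number of reads behind a value is not known, and no counting error can be given. The sum of all FPKM was 940676 to 1157015 in LL libraries, 601250.2 to 616268 in DP and 733277 to 768157 in LG. To set the libraries on 1 scale, each was divided by a median-ratio factor (0.498 to 0.606 in LL, against 1.439 to 1.53 in DP and 1.198 to 1.31 in LG), and values after this division are called scaled FPKM. A log2 fold change is the difference of mean log2(scaled FPKM + 1) between stages, a scale that understates the change of weakly expressed genes. "Called" means an adjusted p under 0.05 (limma, Benjamini-Hochberg over all 14701 genes) together with a log2 fold change of 1 or more, or of -1 or less. Without scaling, the median log2 fold change over the genes tested lay at 1.09 in DP against LL, at 0.93 in LG against LL and at -0.18 in LG against DP, so a direction that depends on the scaling is named as such for every gene. The summed scaled FPKM of 8 luminal epithelial markers was 882.9 to 1155 in LL, compared with 312.9 to 567 in DP and 829.6 to 958 in LG, and none of the 8 was at 0 in every library. As deposited the sums of LL (534.4 to 639 FPKM) and DP (478.2 to 817.2) overlapped. The marker ELF5 alone gave 266 to 374 FPKM of the sum in LL, but 37.6 to 63.7 in DP. It was the only 1 of the 8 called lower in DP than in LL. In bulk tissue, fewer cells of a type and less RNA per cell cannot be told apart. Of 7 adipocyte markers 4 were tested, and 2 of these, CIDEA and LIPE, were called lower in DP and in LG than in LL, while the list summed to 265.7 to 401 scaled FPKM in LL, against 4.77 to 24.6 in DP and 22.01 to 27.04 in LG. ADIPOQ and PLIN1 of the same list went the other way as deposited. ADIPOQ had 0.08 to 0.23 FPKM in LL and 0.79 to 19.3 in DP, and PLIN1 had 0.05 to 0.18 and 0.39 to 5.83. The sum therefore does not rank the stages by fat cells. Of 7 endothelial markers 2 were called lower in LG than in DP, with list sums of 119.1 to 146.8, 142.3 to 219 and 69.4 to 97.7 in LL, DP and LG, and 7 myoepithelial markers summed to 173.3 to 237, 138.7 to 448 and 218.0 to 298.5. DP 1 stood apart from all libraries in the fat marker ADIPOQ (19.3 FPKM, at most 1.72 in any other library) and the B cell marker MS4A1 (7.68 FPKM, at most 0.16 in any other), and DP 3 in the summed fibroblast markers (scaled 2415, against 517.6 and 923 in the other DP libraries).

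The ferritin heavy chain gene FTH1 was the iron handling gene with the highest level in every library and the one with the largest log2 fold change of DP against either other stage. It was lower in DP than in LL (log2 fold change -3.69) and higher in LG than in DP (3.05). The receptor gene TFRC was higher in LG than in DP by 1.10, and the ferroxidase gene CP was lower in LG than in DP (-1.48). CP entered the test only through the DP libraries in which it is high, and its call was lost without DP 3 (-0.76). The remaining 5 genes, SLC40A1, STEAP4, HFE, HMOX1 and SLC11A1, were called in no comparison.

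In DP against LL, 0 of the 8 genes were called higher, where 13.8% of all genes tested were, and 1 (FTH1) was called lower, where 8.79% of all genes were. The unadjusted limma p was under 0.05 for 4 of the 8 (CP, SLC11A1, FTH1 and HFE), where it was for 62.2% of all genes. CP and SLC11A1 were tested only through their DP values, so their part in this count is no support. The median log2 fold change of the 8 was 0.38 beside 0.0041 over all genes. In LG against LL, 0 were called higher and 0 lower, where 10.7% and 6.61% of all genes were. Of the 8, TFRC, HFE, HMOX1 and FTH1 had an unadjusted limma p under 0.05, 4 genes in all, where 56.7% of all genes did, and the median log2 fold change was -0.18 beside 0.019 over all genes. In LG against DP, 2 (TFRC and FTH1) were called higher, where 6.37% of all genes were, and 1 (CP) was called lower, where 6.88% were, a count that is no support because CP was tested only through its DP values. An unadjusted limma p under 0.05 was found for 6 of the 8, where 45.4% of all genes had one. The 6 include CP and SLC11A1, whose part in the count is again no support. The median log2 fold change there was -0.35 beside 0.0083 over all genes. The 3 comparisons share their libraries in pairs, so they are not independent of each other. The plot of log2 fold changes under 3 scalings shows which of these calls depend on how the libraries were set on a common scale.

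**Figure D1:**
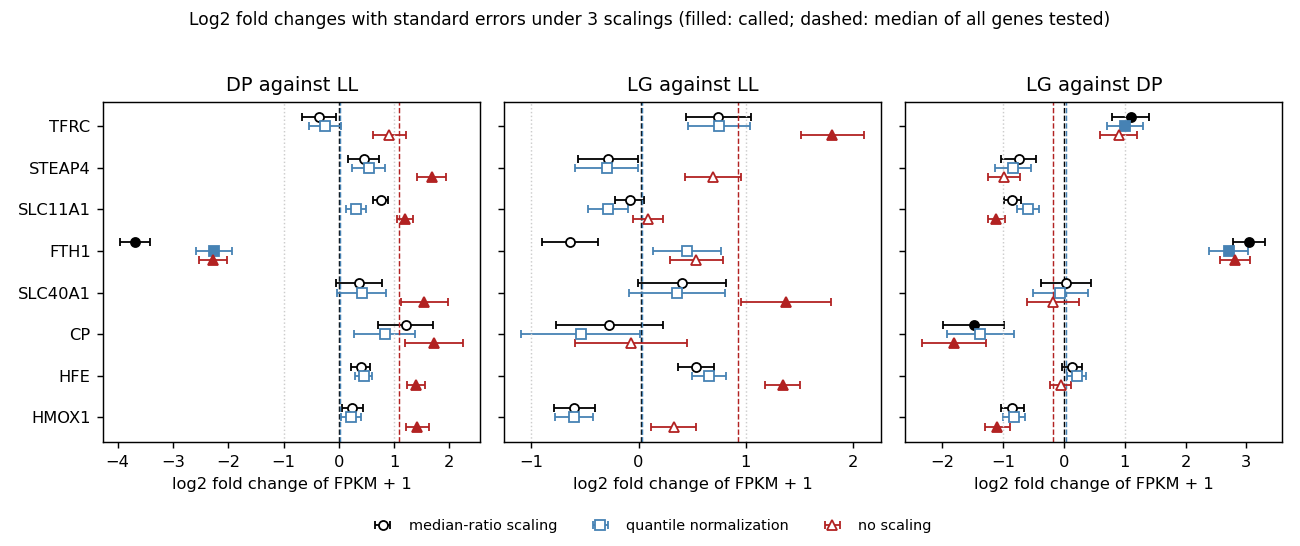
Log2 fold changes of FPKM + 1 with their standard errors (limma, 3 goats per stage) for the 8 iron handling genes in each comparison, with median-ratio scaling, quantile normalization and no scaling. Filled symbols passed both thresholds and dashed lines mark the median of all genes tested, which lies at 1.09 in DP against LL without scaling. FTH1 lies below 0 in DP against LL and above 0 in LG against DP under all 3, whereas in LG against LL its sign differs between them.

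Storage was represented by FTH1 (gene ID 100860752, chromosome 29, 40831663 to 40834137, minus strand), whose product oxidizes iron as it enters the ferritin shell. In LL its level was 1571, 1335 and 1494 FPKM in the 3 goats. In DP it was 284, 212 and 458 FPKM. In LG it was 2139, 2129.9 and 2115 FPKM. The 3 stages did not overlap in FPKM as deposited, with DP at the bottom and LG at the top. Its mean was 1467 ± 120.2 FPKM in LL, against 318 ± 127 in DP and 2128 ± 12.4 in LG (SD, n = 3). By level it was the 17th, 18th and 20th gene of the table in the LL libraries, the 153rd, 183rd and 104th in DP and the 16th, 13th and 11th in LG.

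The difference of FTH1 between DP and LL was -3.69 (SE 0.263, adjusted p = 6.92e-06), -2.26 with quantile normalization and -2.27 without scaling, and it was called under each and with any 1 library left out (-4.00 to -3.45). The difference between LG and DP was 3.05 (SE 0.263, adjusted p = 7.51e-05), 2.71 with quantile normalization and 2.81 without scaling, and it too was called under each and with any 1 library left out (2.81 to 3.36). LL and LG were not ordered in the same way by every scaling. With median-ratio scaling the level was 3157, 2414 and 2467 scaled FPKM in LL and 1786, 1726 and 1609 in LG, and the log2 fold change of LG against LL was -0.64 (SE 0.263, adjusted p = 0.0677). It was 0.45 with quantile normalization (adjusted p = 0.277) and 0.54 without scaling (adjusted p = 0.0694). FTH1 has near-identical processed copies in mammalian genomes, and how reads that fit several places were treated is not given in the sources used here. Its model overlaps BEST1, which had at most 3.16 FPKM, on the opposite strand over 45 bases. Of 8 luminal epithelial markers, 1 was called lower in DP than in LL (ELF5) and 2 were called higher in LG than in DP (ELF5 and CLDN3). The transcription factor gene ELF5 had 335, 374 and 266 FPKM in LL, compared with 39.5, 63.7 and 37.6 in DP and 540, 504 and 654 in LG. The other 7 markers were not called in DP against LL. As deposited the 8 markers summed to 534.4 to 639 FPKM in LL and to 478.2 to 817.2 in DP, which overlap. After scaling they summed to 882.9 to 1155 in LL and to 312.9 to 567 in DP, sums that include ELF5. Whether FTH1 followed the share of luminal cells was not tested.

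The light chain gene FTL, which completes the ferritin shell, had 38.3, 43.8 and 60.7 FPKM in LL. It had 115.9, 209.8 and 129.4 FPKM in DP and 68.3, 77.2 and 76.9 in LG. On the scaled log2 scale FTL differed by 0.23 (SE 0.234, adjusted p = 0.414) in DP against LL and by -0.74 (SE 0.234, adjusted p = 0.0345) in LG against DP, and neither was called. The first was called without scaling (1.63, adjusted p = 0.000147) and the second with quantile normalization (-1.11, adjusted p = 0.00793). The ratio of FTH1 to FTL in a library does not depend on the scaling between libraries. It was 41.1, 30.5 and 24.6 in LL, against 2.45, 1.01 and 3.54 in DP and 31.3, 27.6 and 27.5 in LG. The ratio in DP was 15.2-fold lower than in LL and 13.9-fold lower than in LG, with no overlap in either case (exact permutation test, two-sided, p = 0.1 in both cases, the smallest that 3 against 3 goats can give). LL and LG overlapped (p = 0.8, exact permutation test). This ratio was added after the values were seen. The deposited values of FTL equal those of the neighbouring gene BAX less 1.0 to 1.5 FPKM in each library, so FTL and BAX are not separate measurements.

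**Figure D2:**
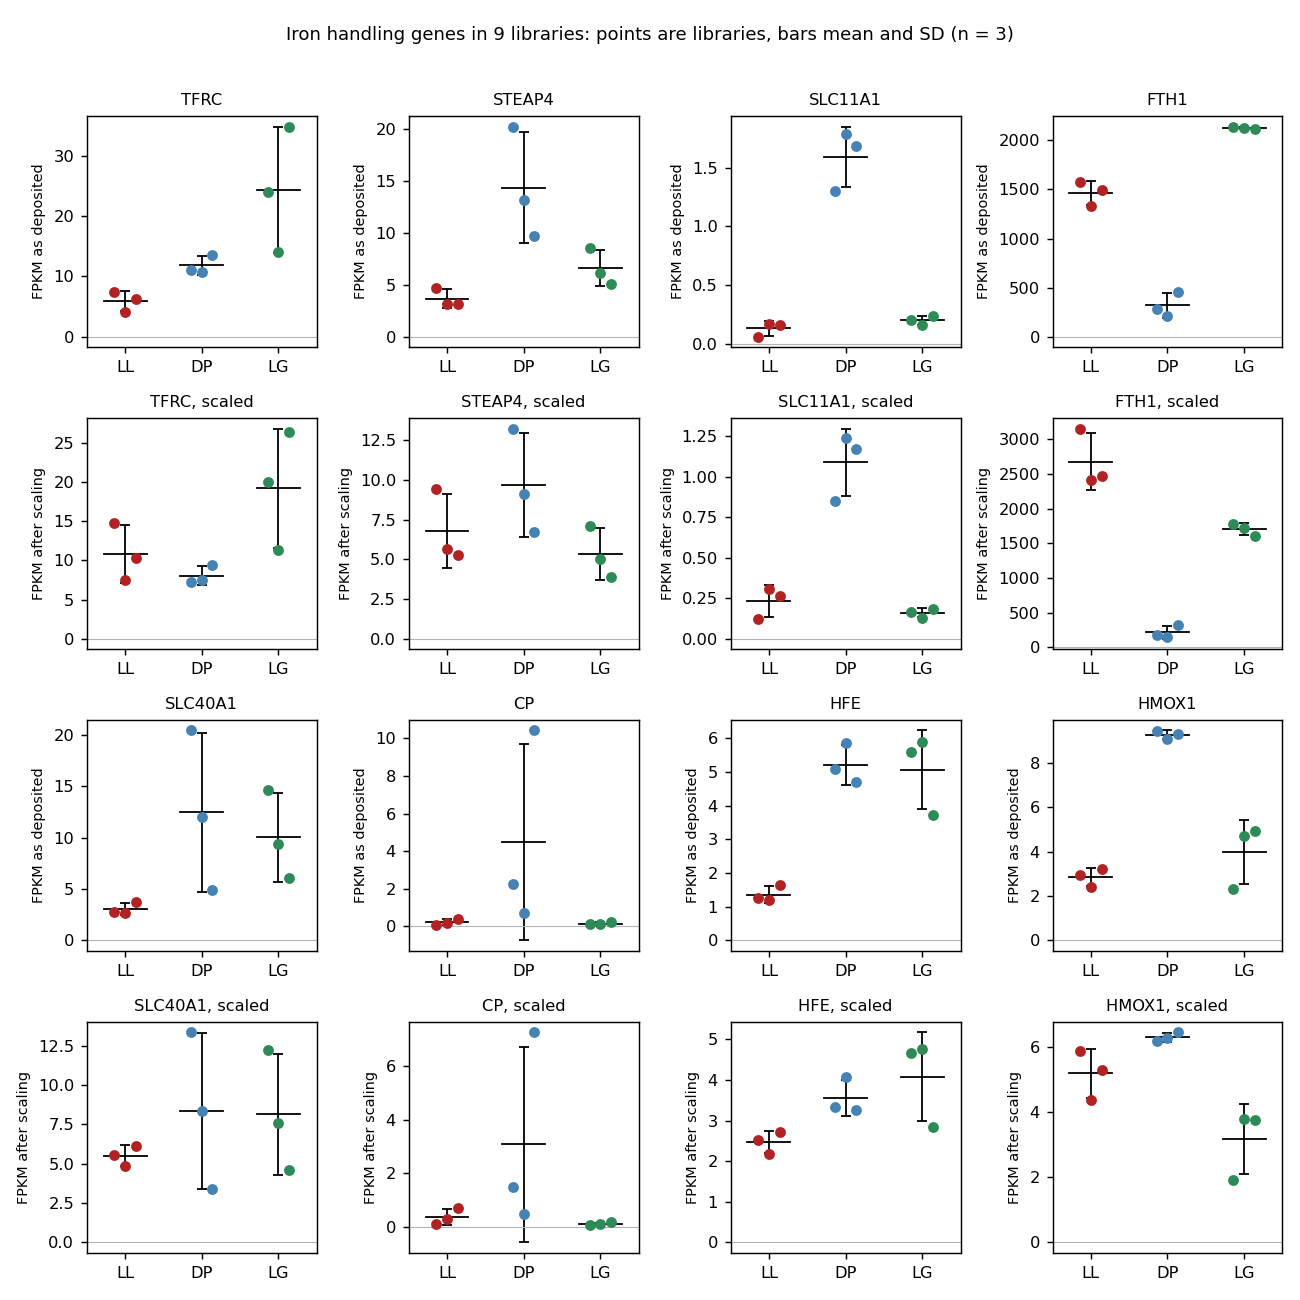
FPKM as deposited (upper row of each pair) and after median-ratio scaling (lower row) of the 8 iron handling genes in each library of late lactation (LL), the dry period (DP) and late gestation (LG), with the mean and SD of the 3 goats as bars and linear axes. FTH1 stood between 212 and 458 FPKM in DP and above 1335 in the other stages, and SLC11A1 was above 1 FPKM in DP libraries and at 0.24 or less elsewhere.

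Uptake was represented by TFRC, STEAP4 and SLC11A1. TFRC (gene ID 102172197, chromosome 1, 70405851 to 70553035, minus strand) had 7.37, 4.12 and 6.27 FPKM in LL, compared with 11.04, 10.8 and 13.6 in DP and 24.0, 13.95 and 34.8 in LG. In FPKM as deposited the stages did not overlap, with LL lowest and LG highest, and LG was the stage with the widest spread between goats (24.3 ± 10.4 FPKM, SD, n = 3). After scaling the order of the LL and DP means turned, with 14.8, 7.45 and 10.4 in LL, against 7.23, 7.48 and 9.42 in DP and 20.1, 11.3 and 26.5 in LG. The scaled values of LL overlapped with those of both other stages.

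TFRC was called higher in LG than in DP (log2 fold change 1.10, SE 0.304, adjusted p = 0.0202), by 1.01 with quantile normalization, and by 0.90 without scaling, where it was not called. The call was lost when DP 1 (1.03, adjusted p = 0.0525), DP 2 (1.06, 0.0569), LG 1 (1.03, 0.0627) or LG 3 (0.84, 0.0705) was left out. In LG against LL the log2 fold change was 0.74 (SE 0.304, adjusted p = 0.0663), and it was called without scaling (1.81, adjusted p = 0.000288) and without LG 2 (1.06, adjusted p = 0.0126). In DP against LL it was -0.35 (SE 0.304, adjusted p = 0.338), and 0.91 without scaling. The gene model of TFRC spans 147185 bases and overlaps ZDHHC19 on the same strand over 9846 bases. In each library the value of TFRC exceeds that of ZDHHC19 by 1.0 to 1.5 FPKM, by the same amounts by which BAX exceeds FTL, so TFRC and ZDHHC19 hold 1 measurement between them. With the values of ZDHHC19 (6.37, 2.82 and 4.77 FPKM in LL, compared with 10.04, 9.28 and 12.1 in DP and 22.5, 12.75 and 33.8 in LG), LG against LL was 1.00 (adjusted p = 0.0349) and called. Which of the genes the reads came from was not tested.

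STEAP4 (gene ID 102176935, chromosome 4, 47803526 to 47827748, plus strand), an iron and copper reductase, had 4.70, 3.11 and 3.17 FPKM in LL, against 20.2, 13.1 and 9.69 in DP and 8.53, 6.15 and 5.10 in LG. The deposited values of the stages did not overlap, with DP highest and LL lowest. After scaling the values of the stages overlapped, at 9.44, 5.62 and 5.24 in LL, compared with 13.2, 9.11 and 6.73 in DP and 7.12, 4.98 and 3.88 in LG. The log2 fold change was 0.46 (SE 0.280, adjusted p = 0.187) in DP against LL, where it was 1.68 and called without scaling, and -0.74 (SE 0.280, adjusted p = 0.0657) in LG against DP. In LG against LL it was -0.29 (adjusted p = 0.419), and 0.70 without scaling.

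SLC11A1 (gene ID 100860834, chromosome 2, 29401519 to 29412318, minus strand), the metal transporter of macrophage phagosomes, had 0.06, 0.17 and 0.16 FPKM in LL, against 1.30, 1.79 and 1.69 in DP and 0.20, 0.16 and 0.24 in LG. Each DP library was above every LL and LG library, also after scaling (0.851 to 1.24 against 0.121 to 0.307 in LL and 0.13 to 0.183 in LG). The log2 fold change was 0.76 (SE 0.135, adjusted p = 0.00126) in DP against LL and -0.84 (SE 0.135, adjusted p = 0.0014) in LG against DP, under the threshold of 1 at a pseudocount of 1. With a pseudocount of 0.1 they were 1.88 (adjusted p = 0.00339) and -2.18 (adjusted p = 0.00286), and both were called. With quantile normalization they were 0.31 (adjusted p = 0.188) and -0.59 (adjusted p = 0.0373), and neither was called. Without scaling they were 1.19 and -1.11 and were called as well. LG and LL differed by -0.083 (adjusted p = 0.633), and by 0.088 without scaling. SLC11A1 was tested only because its DP values passed the filter of 0.5 FPKM in 3 libraries.

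Export was represented by SLC40A1 and CP. SLC40A1 (gene ID 102182451, chromosome 2, 129717867 to 129740162, minus strand) had 2.77, 2.69 and 3.72 FPKM in LL, compared with 20.4, 12.0 and 4.92 in DP and 14.6, 9.38 and 6.04 in LG. In deposited values every DP and LG library was above every LL library. After scaling DP (13.3, 8.34 and 3.42) and LG (12.2, 7.60 and 4.60) spread on both sides of LL (5.57, 4.86 and 6.14). The log2 fold change was 0.37 (SE 0.411, adjusted p = 0.459) in DP against LL and 0.40 (adjusted p = 0.438) in LG against LL, and both were called without scaling, at 1.55 and 1.37. Between LG and DP it was 0.035 (adjusted p = 0.956), and its sign depended on the scaling. The scaled means were 8.37 ± 4.97 in DP, 8.14 ± 3.84 in LG and 5.52 ± 0.642 in LL (SD, n = 3), so they differed by less than the SD within DP or LG.

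CP (gene ID 102172487, chromosome 1, 118544082 to 118604614, plus strand) had 0.06, 0.17 and 0.42 FPKM in LL, against 2.26, 0.72 and 10.4 in DP and 0.11, 0.12 and 0.23 in LG. Every DP library was above every other as deposited, but the 3 DP goats differed widely, and DP 3 set the mean of 4.47 ± 5.21 FPKM (SD, n = 3). After scaling DP 2 (0.50) lay below LL 3 (0.694), so LL and DP overlapped. CP was called lower in LG than in DP (log2 fold change -1.48, SE 0.497, adjusted p = 0.0433), and in DP against LL the log2 fold change was 1.21 (SE 0.497, adjusted p = 0.0612), which was called without scaling (1.73) and with a pseudocount of 0.1 (2.20). LG and LL differed by -0.27 (adjusted p = 0.673). CP passed the filter only through the 3 DP libraries, so the fit without DP 3 was made with a filter of 0.5 FPKM in 2 libraries, chosen after the values were seen. It gave -0.76 (adjusted p = 0.0319) for LG against DP and 0.50 (adjusted p = 0.0901) for DP against LL, and neither was called. With the same filter LG against DP was -1.61 without DP 1 (adjusted p = 0.0545, not called) and -1.97 without DP 2 (adjusted p = 0.00923, called). The call of LG against DP was also lost with quantile normalization (-1.37, adjusted p = 0.087), without a filter on low values (adjusted p = 0.074), in a fit of only those 2 stages (adjusted p = 0.0838) and when any single LL or LG library was left out (adjusted p = 0.0547 to 0.1). The gene model overlaps HPS3 on the opposite strand over 13016 bases (HPS3 had 1.71 to 1.99 FPKM in LL, compared with 7.43 to 12.4 in DP and 3.84 to 4.50 in LG), and the library kit does not mark the strand. DP 3 was also the library with the highest level of the collagen gene COL1A1 (475 FPKM) and of the stromal gene LUM (328 FPKM), and of 7 fibroblast markers 6 were called higher in DP than in LL and 3 lower in LG than in DP. COL1A1 had 54.5 and 127 FPKM in DP 1 and DP 2, and 76.4, 187 and 84.8 in LG. LUM had 60.1 and 87.6 in DP 1 and DP 2, and 38.6, 59.6 and 49.3 in LG. In LG against LL, 2 of the 7 markers were called higher, and CP had 0.11 to 0.23 FPKM in LG. The part of stromal cells in the CP value was not tested.

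The receptor partner HFE (gene ID 102181349, chromosome 23, 18118939 to 18127982, plus strand) had 1.25, 1.2 and 1.64 FPKM in LL, against 5.09, 5.86 and 4.70 in DP and 5.58, 5.88 and 3.72 in LG. After scaling every DP (3.27 to 4.07) and LG (2.83 to 4.77) library was still above every LL library (2.17 to 2.71), while DP and LG overlapped. The log2 fold change was 0.39 (SE 0.167, adjusted p = 0.0688) in DP against LL, 0.53 (SE 0.167, adjusted p = 0.0241) in LG against LL and 0.14 (adjusted p = 0.551) in LG against DP, all under the threshold of 1. Without scaling the first and the second were 1.40 and 1.34 and were called, and the third was -0.052. HFE lies wholly inside the model of LOC102186446 on the same strand, which had 16.2 to 22.8 FPKM in LL, compared with 50.5 to 61.8 in DP and 77.9 to 182 in LG, so reads of the overlapping models cannot be told apart from the table.

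Heme breakdown was represented by HMOX1 (gene ID 100860951, chromosome 5, 72304176 to 72311948, plus strand). It had 2.93, 2.42 and 3.21 FPKM in LL, against 9.44, 9.05 and 9.28 in DP and 2.31, 4.69 and 4.95 in LG. The DP goats were close to each other (9.26 ± 0.196 FPKM, SD, n = 3) and above all others, also after scaling, where DP stood at 6.18 to 6.45, LL at 4.38 to 5.89 and LG at 1.93 to 3.80. The log2 fold change of LG against DP was -0.85 (SE 0.191, adjusted p = 0.00794) and that of LG against LL was -0.60 (SE 0.191, adjusted p = 0.0255), both under the threshold of 1. The first became -1.03 with a pseudocount of 0.1 and -1.09 without scaling and was then called, whereas the second became 0.33 without scaling. In DP against LL it was 0.25 (adjusted p = 0.29), and 1.42 without scaling.

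HMOX1, SLC11A1 and SLC40A1, none of which was called in any comparison, are known to be expressed in macrophages. Of 12 macrophage and monocyte markers, 7 were called higher in DP than in LL (CSF1R, MRC1, VSIG4, C1QA, C1QB, C1QC and TYROBP), with a median log2 fold change of 1.09 over the list, where HMOX1 stood at 0.25, SLC40A1 at 0.37 and SLC11A1 at 0.76. SLC11A1 had at most 0.17 FPKM in LL, where the pseudocount of 1 understates its change (1.88 with a pseudocount of 0.1). The list median of 1.09 was taken at a pseudocount of 1, so it cannot be set against the 1.88. With quantile normalization SLC11A1 stood at 0.31 (limma, adjusted p = 0.188). It was tested only through its DP values, so its difference is no support. In LG against LL, 3 were called lower (CD68, CD14 and MSR1), with a median of -0.30. In LG against DP, 10 were called lower and 0 higher, with a median of -1.14 and an unadjusted limma p under 0.05 for all 12. Their summed scaled FPKM was 109.7 to 143.4 in LL, compared with 271.5 to 317 in DP and 109.0 to 125.3 in LG, so DP did not overlap with the other stages, and none was at 0 in every library. The 4 of 8 lymphocyte markers that were tested were all called higher in DP than in LL, and the list summed to 6.59 to 6.77, 15.3 to 55.8 and 10.96 to 17.65 scaled FPKM in LL, DP and LG. The part of these cells in the values of HMOX1, SLC11A1 and SLC40A1 was not tested.

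Ratios of iron handling genes within a library were compared because they do not depend on the scaling between libraries. With 4 ratios and 3 comparisons, 12 tests were made, each a two-sided exact permutation test that cannot give a p below 0.1. The ratio of storage to uptake, FTH1 to TFRC, was 213, 324 and 238 in LL, against 25.7, 19.7 and 33.8 in DP and 89.0, 153 and 60.8 in LG. The stages did not overlap, and the mean ratio in DP was 9.88-fold lower than in LL and 3.64-fold lower than in LG, while LG was 2.71-fold lower than LL (exact permutation p = 0.1 for each, 0.2 adjusted over the 12 tests). Ratios with TFRC carry the limit that TFRC and ZDHHC19 hold 1 measurement between them. In LL 2 TFRC had 4.12 FPKM and ZDHHC19 2.82, so the size of the ratio depends on which value is taken. No ratio with ZDHHC19 was computed.

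The ratio of HMOX1 to FTH1 was 0.00186, 0.00181 and 0.00215 in LL, compared with 0.0333, 0.0427 and 0.0203 in DP and 0.00108, 0.0022 and 0.00234 in LG. It was 15.8-fold higher in DP than in LL and 17.3-fold lower in LG than in DP, without overlap (exact permutation p = 0.1 for each, adjusted 0.2), and LL and LG overlapped (exact permutation p = 1.0). The ratio of uptake to export, TFRC to SLC40A1, was 2.66, 1.53 and 1.69 in LL, against 0.541, 0.897 and 2.76 in DP and 1.64, 1.49 and 5.76 in LG. It overlapped between all stages (exact permutation p = 0.4 to 0.9). The ratio of CP to SLC40A1 was 0.0217, 0.0632 and 0.113 in LL, compared with 0.111, 0.0599 and 2.12 in DP and 0.00751, 0.0128 and 0.0381 in LG. It was 15.7-fold lower in LG than in DP without overlap (exact permutation p = 0.1, adjusted 0.2), a mean that DP 3 sets, and LL overlapped with both other stages. CP had only 0.11 to 0.23 FPKM in LG, so the size of this fold is uncertain. With 1 library left out the log2 difference ranged from -4.97 to -2.40. CP passed the filter only through its DP libraries, so this difference is no support.

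**Figure D3:**
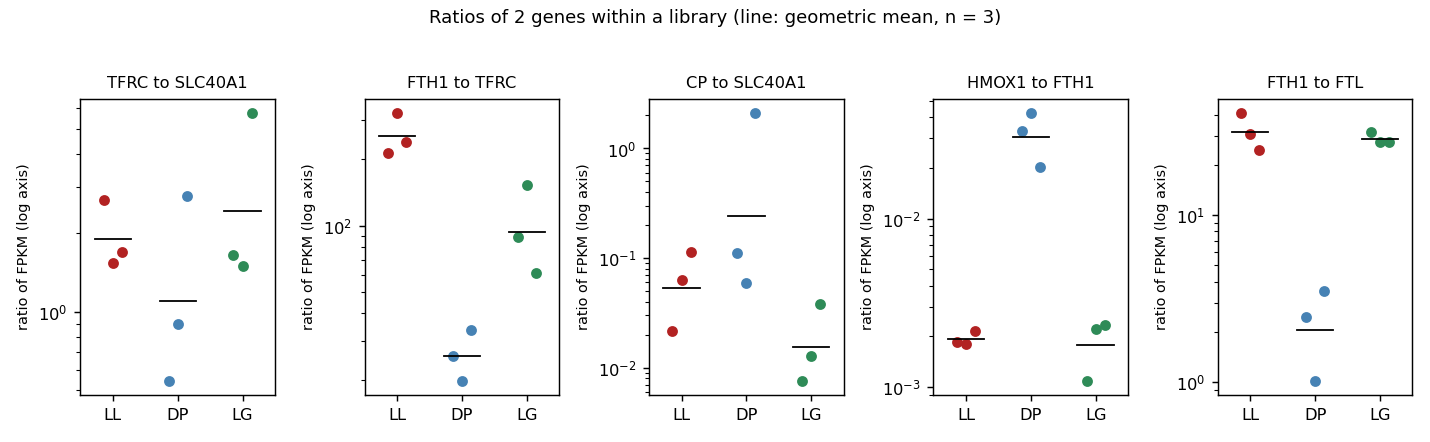
Ratios of FPKM of gene pairs within each library on log axes, by stage, with the geometric mean of the 3 goats as a line. The ratios of FTH1 to TFRC (19.7 to 33.8) and of FTH1 to FTL (1.01 to 3.54) in DP lie below every library of the other stages, and the ratio of TFRC to SLC40A1 overlaps between stages.

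Other genes of iron metabolism were taken from 5 lists with 65 genes, of which 58 were found in the table and 49 were tested. In DP against LL, 6 of the 49 were called higher, beside 13.8% of all genes, and 9 lower, beside 8.79%. In LG against LL 6 were higher, beside 10.7%, and 4 lower, beside 6.61%. In LG against DP 8 were higher, beside 6.37%, and 2 lower, beside 6.88%. Their median log2 fold changes were 0.079, 0.18 and 0.23. The list of uptake and reduction genes held the most calls, as the plot of the 5 lists shows.

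Of 9 tested uptake and reduction genes, 3 were called higher in DP than in LL (STEAP2, SCARA5 and LRP2) and 4 lower (SLC39A14, SLC39A8, LTF and LCN2). For SLC39A14 the log2 fold change was -2.23 (SE 0.618, adjusted p = 0.0124). Its deposited values overlapped, with 37.4, 40.2 and 31.9 FPKM in LL and 10.6, 18.2 and 37.1 in DP, but its scaled values did not. LTF, the lactoferrin gene, had 786, 553 and 1264 FPKM in LL, against 248.4, 120.3 and 258 in DP and 1870.2, 1644 and 1661 in LG. It was lower in DP than in LL by -3.46 (SE 0.332, adjusted p = 3.32e-05) and higher in LG than in DP by 3.35 (SE 0.332, adjusted p = 0.000144). In LG against LL it was -0.11 (adjusted p = 0.808), a sign that turned with quantile normalization (0.22), without scaling (1.07) and without LL 3 (0.12). SLC39A8, a carrier of zinc, manganese and iron, had 99.6, 135.3 and 79.6 FPKM in LL, compared with 12.1, 10.7 and 16.1 in DP and 20.9, 19.1 and 36.8 in LG. It was lower than in LL by -4.27 in DP (SE 0.282, adjusted p = 4.91e-06) and by -3.18 in LG (adjusted p = 3.08e-05).

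STEAP1 and STEAP2, which belong to the same family as STEAP4, were at their highest in LG. STEAP1 had 2.32, 1.61 and 2.04 FPKM in LL, against 8.78, 7.40 and 8.68 in DP and 40.1, 24.0 and 21.3 in LG, and it was called higher in LG than in LL (2.33, SE 0.244, adjusted p = 7.64e-05) and than in DP (1.80, adjusted p = 0.000587). STEAP2 had 0.73, 1.19 and 1.57 FPKM in LL, compared with 10.3, 6.22 and 9.60 in DP and 24.9, 23.7 and 11.1 in LG, and was called higher in all 3 comparisons (1.17, 2.41 and 1.24). STEAP3, the reductase best known from red cell precursors, was called in none, at 0.31, 0.089 and -0.22. LRP2 (megalin), an endocytic receptor that also takes up iron carriers, had 0.70, 0.99 and 3.28 FPKM in LL, against 17.6, 16.7 and 8.52 in DP and 46.3, 37.2 and 71.2 in LG, and it was called higher in each comparison (1.55, 3.54 and 1.99). The ferritin receptor gene SCARA5 had 5.64, 4.18 and 7.30 FPKM in LL, compared with 31.3, 46.4 and 62.4 in DP and 9.75, 7.39 and 11.8 in LG, and was higher in DP than in LL by 1.51 (adjusted p = 0.00145) and lower in LG than in DP by -1.88 (adjusted p = 0.000858). LCN2, which binds bacterial iron carriers, was called lower in DP (-2.46, adjusted p = 0.000496) and LG (-1.82, adjusted p = 0.00323) than in LL, and the second was -0.84 and not called without scaling.

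Of the 4 tested genes of storage and iron chaperones (FTL, NCOA4, PCBP1 and PCBP2), 0 were called in any comparison after scaling, with an unadjusted limma p under 0.05 for 1, 1 and 3 of them. From LL to DP the deposited means rose from 17.2 to 33.4 FPKM for NCOA4, from 2.87 to 8.33 for PCBP1 and from 17.6 to 48.0 for PCBP2. Their scaled log2 fold changes were -0.43, 0.11 and 0.031, so the direction of NCOA4 depended on the scaling. Of 8 tested regulators, ACO1 and EPAS1 were called lower in DP than in LL. ACO1, which as iron regulatory protein 1 binds the iron responsive elements of ferritin and transferrin receptor messages when it carries no iron-sulfur cluster, had 18.1, 26.0 and 12.2 FPKM in LL, against 14.25, 14.7 and 7.93 in DP and 20.2, 21.5 and 29.9 in LG. Its log2 fold change was -1.88 (SE 0.308, adjusted p = 0.000792) in DP against LL, where it was -0.56 and not called without scaling, and 1.12 (SE 0.308, adjusted p = 0.0193) in LG against DP, where it was not called without scaling (0.93), without DP 3 (0.89) or without LG 3 (0.99). IREB2, the gene of iron regulatory protein 2, had 2.13, 2.74 and 3.15 FPKM in LL, compared with 9.11, 8.29 and 8.38 in DP and 10.5, 8.88 and 13.0 in LG, with scaled log2 fold changes of 0.24 (adjusted p = 0.144), 0.72 (adjusted p = 0.00177) and 0.48 (adjusted p = 0.0189), none called. Without scaling its first and second log2 fold changes were 1.39 and 1.68 and were called. EPAS1, the hypoxia-inducible factor 2 alpha gene, was lower than in LL in DP (-1.68, adjusted p = 0.00029) and in LG (-2.31, adjusted p = 6.37e-05), and NEO1, a receptor of hemojuvelin, was higher in LG than in LL (1.02, adjusted p = 0.000154), but not called without LG 2 (0.93). EPAS1 was not called in DP against LL without scaling (-0.31). HAMP, the gene of the iron hormone hepcidin, was listed at 0 in every library but DP 2 (0.02 FPKM).

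Of 14 tested heme genes, LRP1, a receptor of hemopexin that many cell types use, was called higher in DP than in LL (1.71, adjusted p = 0.0029) and lower in LG than in DP (-1.73, adjusted p = 0.00482). SLC48A1, the heme transporter of endosomes, was called higher in LG than in LL (1.46, adjusted p = 0.00048) and than in DP (1.11, adjusted p = 0.00327), with 2.18, 2.52 and 2.78 FPKM in LL, against 8.95, 9.21 and 8.36 in DP and 20.6, 21.75 and 12.1 in LG. BLVRB, which reduces biliverdin, was called higher in LG than in DP (1.08, adjusted p = 0.000998), and neither SLC48A1 nor BLVRB was called in that comparison without scaling (0.92 and 0.89), and SLC48A1 not without LG 1 (0.97) or LG 2 (0.95). Among 14 tested genes of mitochondrial iron and iron-sulfur clusters, the cysteine desulfurase gene NFS1 was called higher than in LL in DP (1.36, adjusted p = 7.08e-05) and in LG (1.43, adjusted p = 7.64e-05), and had 0.29, 0.12 and 0.49 FPKM in LL against 3.68 to 4.84 in all other libraries. It passed the filter only through DP and LG, where it is high, and with quantile normalization DP against LL was 0.98 and not called. SLC25A37 (mitoferrin 1) was called higher in DP than in LL (1.04, adjusted p = 0.000382), and was 0.95 to 1.00 and not called without LL 1, DP 1 or DP 2. ISCA2 (-1.57), FDX1 (-1.14) and BOLA3 (-1.39), which serve the assembly of iron-sulfur clusters, were called lower in DP than in LL, but none of the 3 without scaling (-0.34, 0.13 and -0.18), and FDX1 not without LL 2 (-0.87). In LG against DP 0 of these 14 were called, with an unadjusted limma p under 0.05 for 6.

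**Figure D4:**
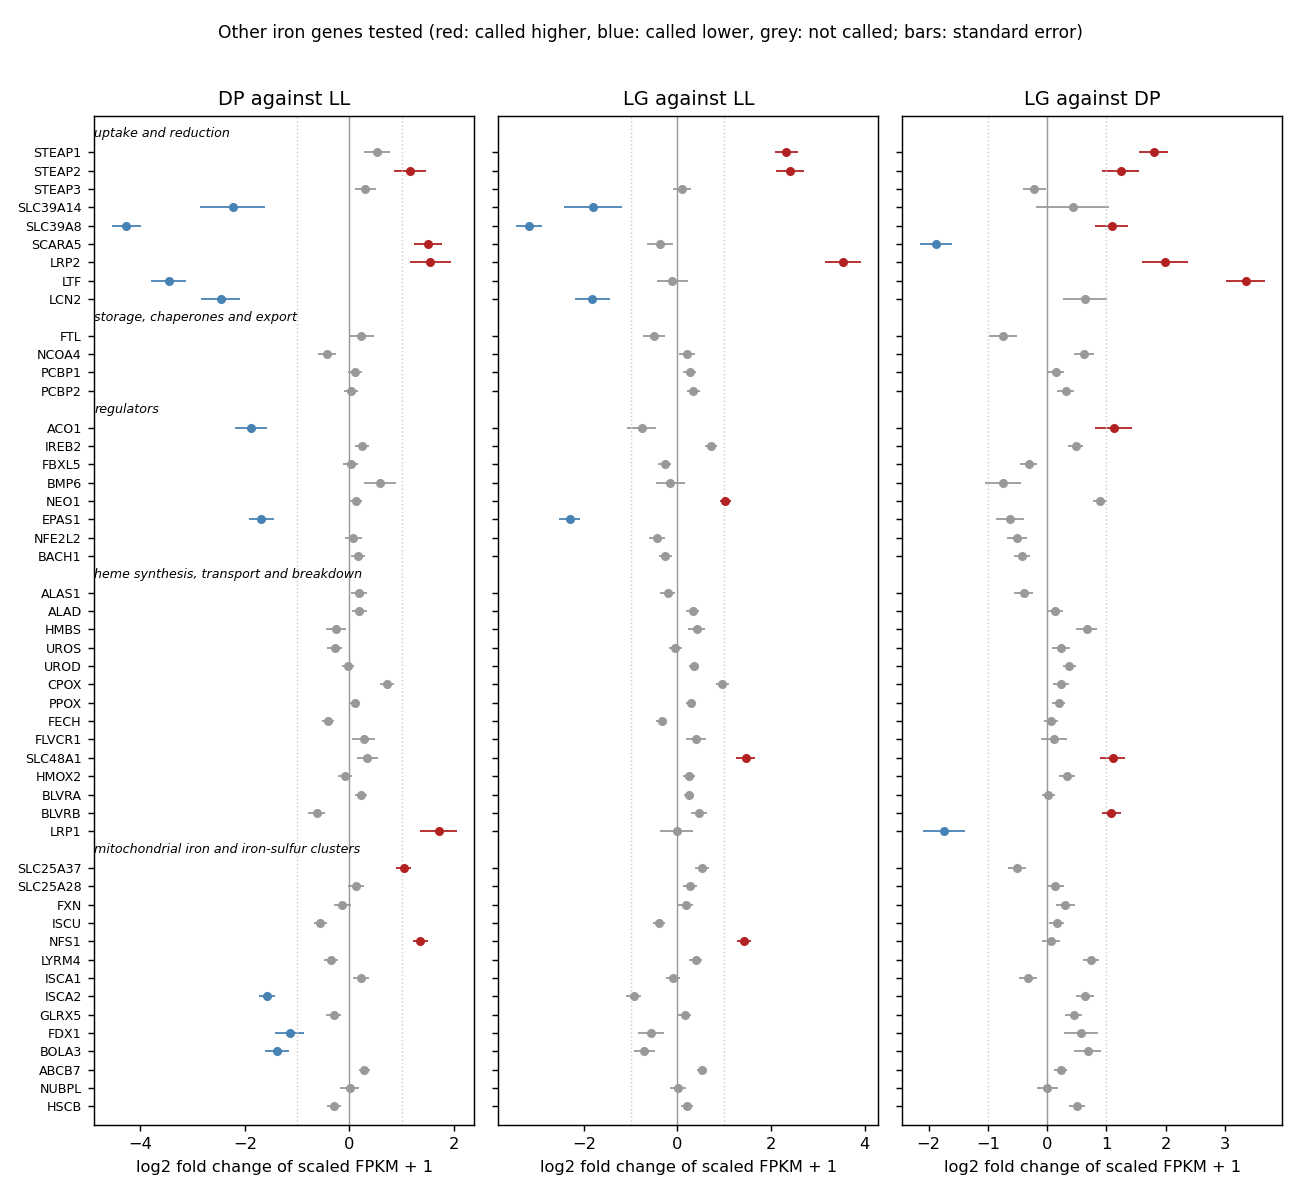
Log2 fold changes of scaled FPKM + 1 with their standard errors (limma, 3 goats per stage) for the 49 tested genes of 5 other iron lists, red where called higher, blue where called lower and grey where not called, with dotted lines at a size of 1. Calls are most frequent among uptake and reduction genes, where SLC39A8 reached -4.27 in DP against LL and LRP2 3.54 in LG against LL.

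For each iron handling gene, the 3 tested genes with the most similar profile over the 9 libraries were found by the root mean square distance between log2 profiles after scaling and centring, given beside the median distance to all genes. FTH1 was closest to PEMT (0.36), LTF (0.377) and SLC1A2 (0.38), where the median was 1.66. TFRC was closest to NPM3 (0.257), CRYZ (0.26) and ERBB4 (0.266), with a median of 0.694. SLC11A1 was closest to PACSIN3 (0.0718), IGF1R (0.106) and INPP5F (0.108), with a median of 0.533, and HMOX1 to FAM129A (0.144), NFKBIZ (0.149) and ZDHHC23 (0.152), with a median of 0.559. CP was closest to EPDR1 (0.166), RASL11B (0.203) and SULF1 (0.235), with a median of 0.954, and EPDR1 shared its high value in DP 3 (11.04 FPKM, against 1.98 and 1.21 in DP 1 and DP 2). SLC40A1 was closest to DAPP1 (0.279), XK (0.285) and HMGB2 (0.296), with a median of 0.661. HFE was closest to MED11 (0.0972), BRI3 (0.111) and SPR (0.117), with a median of 0.477, and STEAP4 to MYB (0.172), RAB27B (0.174) and C4H7orf57 (0.183), with a median of 0.591. A weakly varying gene has small distances to many others, so the distances are not comparable between the 8 genes. The log2 profiles carry the pseudocount of 1. It understates the change of SLC11A1 and CP, which had at most 0.307 and 0.694 scaled FPKM outside DP. A small distance of these genes to a gene of higher level therefore does not mean a similar fold change.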

How the data were processed

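Total RNA of mammary tissue from 9 goats was made into TruSeq libraries and sequenced on a HiSeq instrument by the authors. The processing notes name FastQC, Trimmomatic, HISAT2, SAMtools and HTSeq, and the methods name StringTie. The authors deposited 1 table of 23499 genes and 9 columns, all used. Its values were taken as FPKM, which the authors computed per gene; the table names no unit. They carry 2 decimals, too few to recover reads, so the depth behind a value is unknown and no count test was run. Coordinates are those of the table, which names no build, and 23465 gene IDs have the same start and end in the RefSeq table of ARS1.2.

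The fit used limma 3.58.1 (R 4.3.3) for the 14701 genes that reached 0.5 FPKM in 3 or more libraries, on log2(FPKM / factor + 1), with factors from 15905 genes, a mean-variance trend, all 9 libraries in 1 fit and no covariates. Of 6 planned ratios, 4 could be computed, so 12 and not 18 exact permutation tests were adjusted for. Values were called linked when their difference, or that difference less the amounts by which BAX exceeds FTL, was constant within 0.02 FPKM. The scripts were tested on simulated data. The 10 genes and the lists were chosen with earlier results of these data known. Named are all 10, FTL, LTF, ACO1, IREB2 and HAMP, up to 3 called genes per list, direction and comparison with the largest fold change, and the 3 most similar genes. Alternatives were the scaling, pseudocount, filter, libraries in the fit, trend, threshold, a block for the replicate number and each library left out. Of the 8 marker lists, 1 is not reported here.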

Additional observations from a re-analysis of the deposited data

How the results depend on the processing

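Without scaling, 8348 genes were called in DP against LL and 7043 in LG against LL (3321 and 2544 with scaling), and 7 and 3 iron handling genes. With adjusted p alone, 8359, 7383 and 5112 genes were called in DP against LL, LG against LL and LG against DP, and 2, 2 and 5 iron handling genes. A pseudocount of 0.1 gave 3912 genes in LG against LL, and 3 iron handling genes in DP against LL and 5 in LG against DP. With 1 library left out, 1 iron handling gene was called in DP against LL, 0 to 1 in LG against LL and 1 to 2 in LG against DP, and the genes called were 3075 to 3422, 2400.0 to 2576 and 1738 to 2004. CP and SLC11A1 drop out when a DP library is left out under the usual filter, and 3 fits added after the values were seen kept them in. In these fits SLC11A1 was not called, and CP was called only without DP 2, in DP against LL (1.71) and in LG against DP (-1.97). The filter therefore lowers the counts only where DP 2 was left out.

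Signs turned without scaling for TFRC (0.91, DP against LL), HMOX1 (0.33), SLC11A1 (0.088), FTH1 (0.54) and STEAP4 (0.70) in LG against LL, for SLC40A1 (-0.18) and HFE (-0.052) in LG against DP, for FDX1 (0.13) in DP against LL and for LTF (1.07), FTL (0.65) and ACO1 (0.37) in LG against LL. With quantile normalization they turned for FTH1 (0.45) and LTF (0.22) in LG against LL and for SLC40A1 (-0.055) in LG against DP. With 1 library left out, SLC40A1 ranged from -0.015 to 0.83 in DP against LL and from -0.42 to 0.42 in LG against DP, FTL from -0.039 to 0.43 in DP against LL and LTF from -0.41 to 0.12 in LG against LL. The log2 ratio of TFRC to SLC40A1 ranged from -0.28 to 0.69, of HMOX1 to FTH1 from -0.33 to 0.23 and of FTH1 to FTL from -0.30 to 0.070, each in LG against LL. SLC39A14 was called lower in LG than in LL (-1.80, adjusted p = 0.0348) but not without scaling (-0.65), with quantile normalization (-1.48), without a filter or without any LL library, LG 1 or LG 2. The causes were not tested beyond the change of scaling itself.

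Same-numbered libraries came from different goats, so the numbers do not pair animals. Their deviations from the stage means correlated at -0.106 to 0.201 over 9 pairs, 3 of them above 0.1. Libraries with different numbers correlated at -0.223 to 0.0722. What libraries of the same number may share was not tested beyond a fit with a block. A replicate block called 3340, 2564 and 1986 genes and, in DP against LL, 2 iron handling genes, where CP (1.21) was added with an adjusted p of 0.0314.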
